A study of Mus musculus with 9 samples.

Results

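Transcripts of 10 serotonin receptor genes were followed in RNA of mouse spinal motoneurons after spinal cord injury and electrical stimulation. The genes were taken by name (Htr1a, Htr1b, Htr1d, Htr2a, Htr2b, Htr2c, Htr3a, Htr4, Htr5b and Htr7), and all 10 were found among the 55401 genes of the deposited table. The stimulated (SBES) group had a spinal cord injury followed by synergistic bidirectional electrical stimulation, the untrained group had the injury without stimulation, and the sham group had neither, its treatment being given as none. Each group had 3 Smart-seq2 libraries of wild-type (WT) mice, with 4 weeks after the injury as the time given, and no strain, age or sex is given in the sources used here. The stimulation frequency was 10 Hz in SBES replicate 1, 15 Hz in replicate 2 and 20 Hz in replicate 3, which leaves 1 library per frequency and no test of frequency. The neurons carried the fluorescent label that the submitters call TRDA and were drawn from fresh slices with glass electrodes. The titles call the libraries scRNAseq, and how many neurons went into each is unstated in the labels. The labels name 3 mice per group without tying a library to a mouse, and p-values therefore measure the spread between libraries, part of which may be technical.

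Serotonin reaches the spinal cord through axons of brainstem raphe neurons, and a spinal injury cuts many of them. Receptors of the 5-HT2 family couple to Gq and phospholipase C and raise the excitability of motoneurons, those of the 5-HT1 family couple to Gi/o and lower cyclic AMP, and 5-HT4 and 5-HT7 couple to Gs and raise it. The 5-HT3 receptor is the exception, a cation channel opened directly by serotonin. In rats with a chronic cord injury, 5-HT2 receptors of motoneurons are known to become more active in the absence of serotonin and to take part in spasms.

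Total counts ran from 11821145 to 17675948 per library. Transcripts of motor neurons and of other cord cells were present together. Chat, the enzyme that makes acetylcholine, lay between 19.6 and 34.6 CPM and Slc18a3, its vesicular transporter, between 34.6 and 135.0 CPM. The summed level of 9 oligodendrocyte markers lay between 38300 and 109000 CPM, that of 8 pan-neuronal markers between 3700 and 7110 CPM, and that of 10 motor neuron markers between 616 and 1980 CPM. By group the motor neuron sum was 724 to 1980 CPM in SBES, 616 to 959 CPM in untrained and 1440 to 1970 CPM in sham libraries. In untrained against sham 9 of the 10 were negative (median log2 fold change -0.405), where 49.1% of all genes were positive. In SBES against sham 1 of the 10 was called, lower, against 0.346% of all genes. The part of this difference in the receptor comparisons was not tested. CPM are counts scaled to a common library total after TMM adjustment, the usual size-corrected measure of RNA-seq, and FPKM are the deposited values per kilobase of exon. Sham 1 and SBES 1 stood apart with TMM factors of 0.727 and 0.760, against 1.018 to 1.16 in the others, and sham 1 had the highest summed leukocyte markers at 1430 CPM. Without the 3 replicate 1 libraries, as with them, 0 receptors were called. In libraries of an unstated number of cells, fewer cells of a type and less RNA per cell cannot be told apart. The columns of the 3 untrained libraries and of SBES replicate 1 carry only a replicate number, and their groups were assigned as the ones left over. Their values below depend on that assignment.

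The 10 genes differ in structure and surroundings, and these bear on how their counts can be read. Htr7 lies on the minus strand at chr19:35958734-36057507 of mm10 and Htr2a on the plus strand at chr14:74640840-74709494. Htr2b, on the minus strand at chr1:86099026-86111970, lies wholly within Psmd1, a proteasome subunit gene on the other strand, and 11.8% of its exonic bases overlap exons of Psmd1 in GENCODE M21. Htr1b shares 18% of its exonic bases with the antisense gene D430036J16Rik. Whether the counting used strand is not given in the sources used here, and reads from such partners cannot be told apart. Htr2c spans 234765 bases of chromosome X and holds miRNA and snoRNA genes in its introns, with 0 exonic bases shared. A RefSeq promoter window, 250 bases before to 50 bases after the start, was at hand for 7 of the 10 genes. The windows below belong to the receptor with the highest mean level per length (Htr7) and to Htr2a and Htr2b, whose libraries did not overlap between groups in at least 1 comparison. The Htr7 window is chr19:36057311-36057610 (minus strand), that of Htr2a chr14:74640624-74640923 (plus strand) and that of Htr2b chr1:86111931-86112230 (minus strand). They are written 5′ to 3′ on the strand of the gene from GRCm38.p6, with motif matches in capitals.
Htr7: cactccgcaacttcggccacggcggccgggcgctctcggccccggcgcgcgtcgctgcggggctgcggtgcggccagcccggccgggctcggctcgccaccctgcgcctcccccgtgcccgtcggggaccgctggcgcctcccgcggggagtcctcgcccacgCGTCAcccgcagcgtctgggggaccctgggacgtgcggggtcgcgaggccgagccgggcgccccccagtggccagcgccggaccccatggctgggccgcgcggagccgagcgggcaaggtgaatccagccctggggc
Htr2a: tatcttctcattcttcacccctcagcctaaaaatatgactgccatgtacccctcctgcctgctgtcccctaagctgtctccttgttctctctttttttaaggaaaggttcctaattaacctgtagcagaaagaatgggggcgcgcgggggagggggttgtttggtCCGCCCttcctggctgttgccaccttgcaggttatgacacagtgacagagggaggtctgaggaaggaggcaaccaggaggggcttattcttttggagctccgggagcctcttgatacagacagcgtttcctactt
Htr2b: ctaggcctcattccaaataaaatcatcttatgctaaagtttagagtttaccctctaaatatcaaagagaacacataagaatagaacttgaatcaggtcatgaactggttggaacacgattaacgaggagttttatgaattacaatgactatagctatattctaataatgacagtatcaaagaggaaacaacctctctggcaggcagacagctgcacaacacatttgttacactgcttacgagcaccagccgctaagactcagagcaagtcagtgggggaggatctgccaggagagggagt

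The windows differed in base composition. GC made up 81% of the Htr7 window, with 46 CpG dinucleotides, against 52% and 6 for Htr2a and 41% and 4 for Htr2b. Both strands were searched for 5 short motifs, and their matches in the printed windows did not overlap. The core of a cyclic AMP response element, TGACG, was found once in the Htr7 window, and 20.8% of all 32851 windows of the same length hold it. The GC box, written GGGCGG, was found once in the Htr2a window and is held by 35.7% of all windows in the RefSeq table. The E box of basic helix-loop-helix factors, CACGTG, is held by 7.15% of windows and was found in none of the printed windows. The TATA box, searched as TATAAA, is held by 13.6% of all windows and was likewise missing from the printed ones. The site of the AP-1 factors Fos and Jun, TGACTCA, is held by 5.2% of windows and was missing as well, which leaves the Htr2b window with no match. These matches describe letters only.

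Htr7, Htr3a and Htr2c were the most abundant receptor transcripts per length. Htr7 averaged 3.52 ± 1.17 FPKM over the 9 libraries (SD, n = 9), Htr3a 3.20 ± 1.78 FPKM and Htr2c 1.20 ± 0.421 FPKM. Htr7 encodes a Gs-coupled receptor linked to locomotor circuits of the cord, Htr3a the obligatory subunit of the 5-HT3 channel, and Htr2c a Gq-coupled receptor of motoneurons. These 3 genes made up between 68.9% and 83.4% of the summed receptor FPKM of a library. Htr7 and Htr3a held the first places in all 9 libraries, with Htr7 above Htr3a in 6 of 9, and their mean difference of 0.324 FPKM was smaller than its SD of 1.78. Htr3a exceeded Htr2c in 9 of 9 libraries, and Htr2c exceeded Htr2a in 9 of 9.

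**Figure D1:**
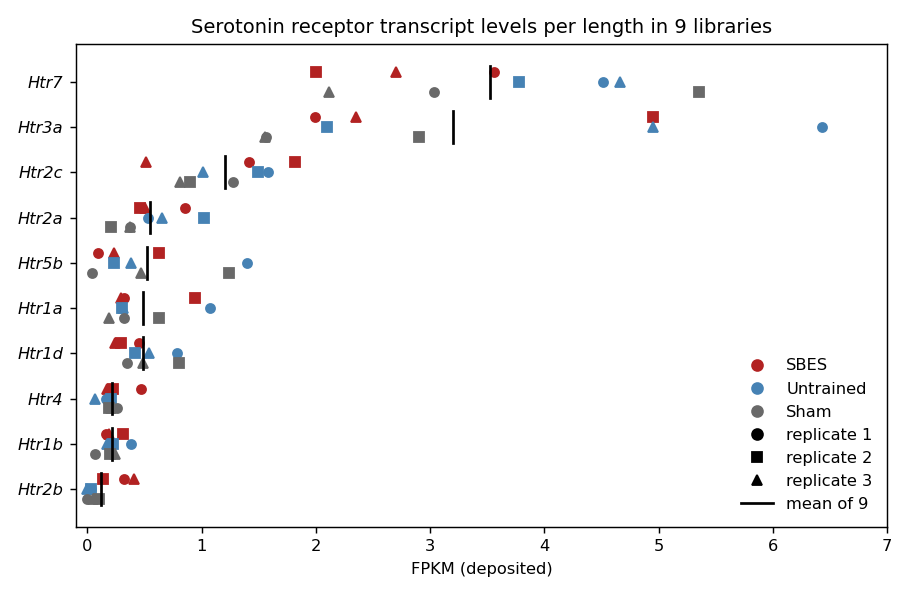
Deposited FPKM (x axis) of the 10 receptor genes (rows, ordered by the mean of 9 libraries, black line) in each library, coloured by group with a symbol per replicate. Htr7 and Htr3a lie between 1.55 and 6.43 FPKM in every library, and Htr4, Htr1b, Htr1d and Htr2b stay below 1 FPKM.

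Below them, 4 genes could not be ranked. Htr2a averaged 0.551 ± 0.253 FPKM, Htr5b 0.523 ± 0.489, Htr1a 0.486 ± 0.319 and Htr1d 0.484 ± 0.197 FPKM (SD, n = 9), and neighbours in this order differed by less than the SD of their difference. Htr4 at 0.218 ± 0.108 and Htr1b at 0.216 ± 0.0893 FPKM differed by less than that SD as well. Htr2b had the lowest mean at 0.120 ± 0.148 FPKM and lay below Htr1b in 7 of 9 libraries, by less than the SD of the difference. All members but Htr2b had counts in every library, and 6 had at least 10 counts in each. The filter on low counts passed 9 of the 10 genes and left out Htr2b. The median gene with any count stood at 0.261 FPKM, below the 7 higher receptors and above Htr4, Htr1b and Htr2b.

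No receptor gene was called in any comparison with edgeR's quasi-likelihood test at an adjusted p under 0.05, and DESeq2 called 0 as well. In untrained against sham libraries 0 of 9 receptors were called, against 0% of the 15893 genes tested, and 1 had an unadjusted p under 0.05, against 4.45%. In SBES against untrained libraries 0 of 9 were called, against 0% of all genes, and 0 had an unadjusted p under 0.05, against 5.37%. In SBES against sham libraries 0 of 9 were called, against 0.346% of all genes, and 0 had an unadjusted p under 0.05, against 9.31%. DESeq2 gave 1 of 10 receptors with an unadjusted p under 0.05 in each of the comparisons. The share of all genes under that DESeq2 limit is not given here, and no result about the receptors is drawn from these counts. Between SBES and untrained libraries separation of all libraries in CPM was found for 0 of the 9 tested receptors (Htr2b not among them). Of all genes 10.4% were separated there, 5.66% with SBES higher and 4.77% with SBES lower. Between SBES and sham libraries 0 of 9 receptors were separated in CPM, against 13.8% of all genes, 7.1% with SBES higher and 6.73% lower. The median log2 fold change of the 9 receptors was 0.17 in untrained against sham, with 7 positive, where the median of all genes was -0.0068. It was -0.06 in SBES against untrained, with 4 positive, and 0.39 in SBES against sham, with 6 positive, where the medians of all genes were 0.015 and -0.0018. SBES against sham shares its libraries with both other comparisons and is not independent of them.

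**Figure D2:**
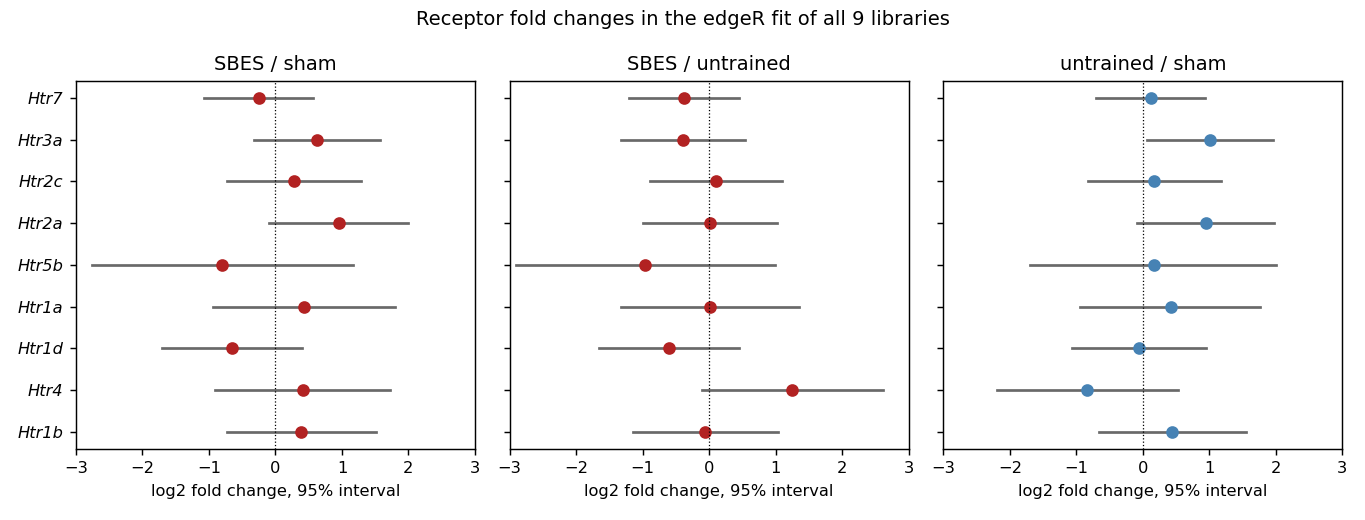
Log2 fold change (x axis, dot) with its 95% interval (line) of the 9 receptor genes that passed the filter, from the edgeR fit of all 9 libraries, in 3 comparisons. The interval of Htr3a in untrained against sham runs from 0.07 to 1.96, and every other interval shown includes 0.

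The summed receptor level overlapped between groups on both scales, and no test was run on it. In CPM it averaged 40.6 ± 13.8 CPM in SBES, 44.3 ± 10.6 CPM in untrained and 35.5 ± 9.68 CPM in sham libraries (SD, n = 3 each). Single libraries ran from 24.8 CPM (sham 3) to 56.3 CPM (untrained 1). In FPKM, which divide by exonic length and carry no TMM adjustment, the sum averaged 9.66 ± 2.09 in SBES, 13.1 ± 3.55 in untrained and 8.76 ± 3.28 in sham libraries. The untrained mean exceeded the sham mean by more than either SD in FPKM and by less in CPM, while sham 2 at 12.5 FPKM lay above untrained 2 at 9.8 FPKM.

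Of the Gq-coupled receptors, Htr2a was the one whose untrained libraries all lay above the sham libraries. It encodes the 5-HT2A receptor, which in motoneurons sustains inward currents that prolong firing. Htr2a had 6.24, 2.36 and 2.78 CPM in SBES libraries 1 to 3, 2.84, 4.95 and 3.32 CPM in untrained libraries and 2.83, 1.02 and 2.02 CPM in sham libraries. The lowest untrained library stood just above the highest sham library, and SBES libraries overlapped both groups in CPM. In FPKM every SBES library of Htr2a (0.85, 0.46 and 0.5) lay above every sham library (0.37, 0.21 and 0.37). The log2 fold change was 0.95 (SE 0.48) in untrained against sham and 0.96 (SE 0.48) in SBES against sham, with edgeR adjusted p = 1 and 0.582. Of the 9 receptors tested, 1 had untrained libraries all above sham, against 4.63% of all genes, and 0 had them all below, against 5.13%, which together make 11.1% of the receptors and 9.76% of the genes. Between SBES and untrained libraries its log2 fold change was 0.01, with a 95% interval from -1.0 to 1.02. Without SBES replicate 1 the value against sham was 0.45 and that against untrained -0.53.

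Htr2c, the other abundant Gq-coupled receptor, varied more within groups than between them. It had 17.3, 15.4 and 4.70 CPM in SBES libraries, 14.0, 12 and 8.57 CPM in untrained libraries and 16.3, 7.30 and 7.31 CPM in sham libraries. The ranges of the groups overlapped, and SBES libraries held both the highest and the lowest level. Its fitted log2 fold change was 0.17 (95% interval -0.82 to 1.17) in untrained against sham, 0.10 (-0.89 to 1.09) in SBES against untrained and 0.28 (-0.72 to 1.28) in SBES against sham. Htr2c is abundant in choroid plexus, and the choroid plexus marker Ttr lay between 0.111 and 1.12 CPM here, with Otx2 at 0 in every library.

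Htr2b had counts mainly in SBES libraries. The 5-HT2B receptor couples to Gq and is known from vessels, meninges and microglia more than from neurons. The counts were 8, 4 and 14 in SBES libraries, 1, 1 and 0 in untrained libraries and 0, 3 and 2 in sham libraries. Every SBES library lay above every other library in CPM, at 0.891, 0.277 and 0.866 CPM, against at most 0.0661 CPM in untrained and 0.190 CPM in sham libraries. Of the genes that passed the filter, 5.66% had all SBES libraries above untrained and 7.1% had them above sham. Htr2b did not pass it, and no such share was counted for genes as low as Htr2b. Summed over a group there were 26 counts in SBES, 2 in untrained and 5 in sham. The SBES level was 16.3 times that of untrained libraries, with an interval of 4.09 to 142, and 5.69 times that of sham, with 2.15 to 19.0. These are 95% exact conditional intervals that cover counting error only and not the spread between libraries. In a fit without the filter the log2 fold changes were 3.77 (SE 1.20) and 2.52 (SE 1.08), and edgeR's adjusted p = 0.186 and 0.442 missed the threshold. Leaving out single libraries in that fit gave 3.27 to 4.15 and 2.09 to 3.18.

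Psmd1, the gene around Htr2b, had 192, 128 and 131 CPM in SBES libraries, 129, 123 and 135 CPM in untrained and 135, 140 and 125 CPM in sham libraries. In CPM SBES library 1 lay above the other groups for both genes. SBES libraries 2 and 3 lay within their range for Psmd1 and above it for Htr2b. In FPKM SBES library 1, at 20.06 for Psmd1, lay within the 13.45 to 22.15 of the other groups as well. The summed level of 7 microglia markers lay between 451 and 1190 CPM in SBES, 616 and 726 CPM in untrained and 375 and 802 CPM in sham libraries, and the microglial receptor gene Cx3cr1 is among them at 31 to 95.3 CPM over all libraries. The fibroblast and meninges markers summed to 20.9 to 27.9 CPM in SBES, 22.6 to 34.4 in untrained and 19.6 to 28.9 CPM in sham libraries. Of 8 markers of endothelium and pericytes, 8 were positive in SBES against sham and 4 in SBES against untrained, where 49.8% and 51.7% of all genes were. Their sums ran from 173 to 317 CPM in SBES, 251 to 452 CPM in untrained and 163 to 291 CPM in sham libraries. Pecam1 and Flt1, both endothelial, lay higher in every SBES than in every sham library (log2 fold changes 1.48 and 0.79, edgeR adjusted p = 0.208 and 0.35), and overlapped between SBES and untrained libraries. Of the 8 markers these were the 2 (25%) without overlap between SBES and sham, against 13.8% of all genes, and the other markers overlapped. Pecam1 and Flt1 were picked after their values were seen. The part of these cell types, or of reads from Psmd1, in the Htr2b counts was not tested.

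**Figure D3:**
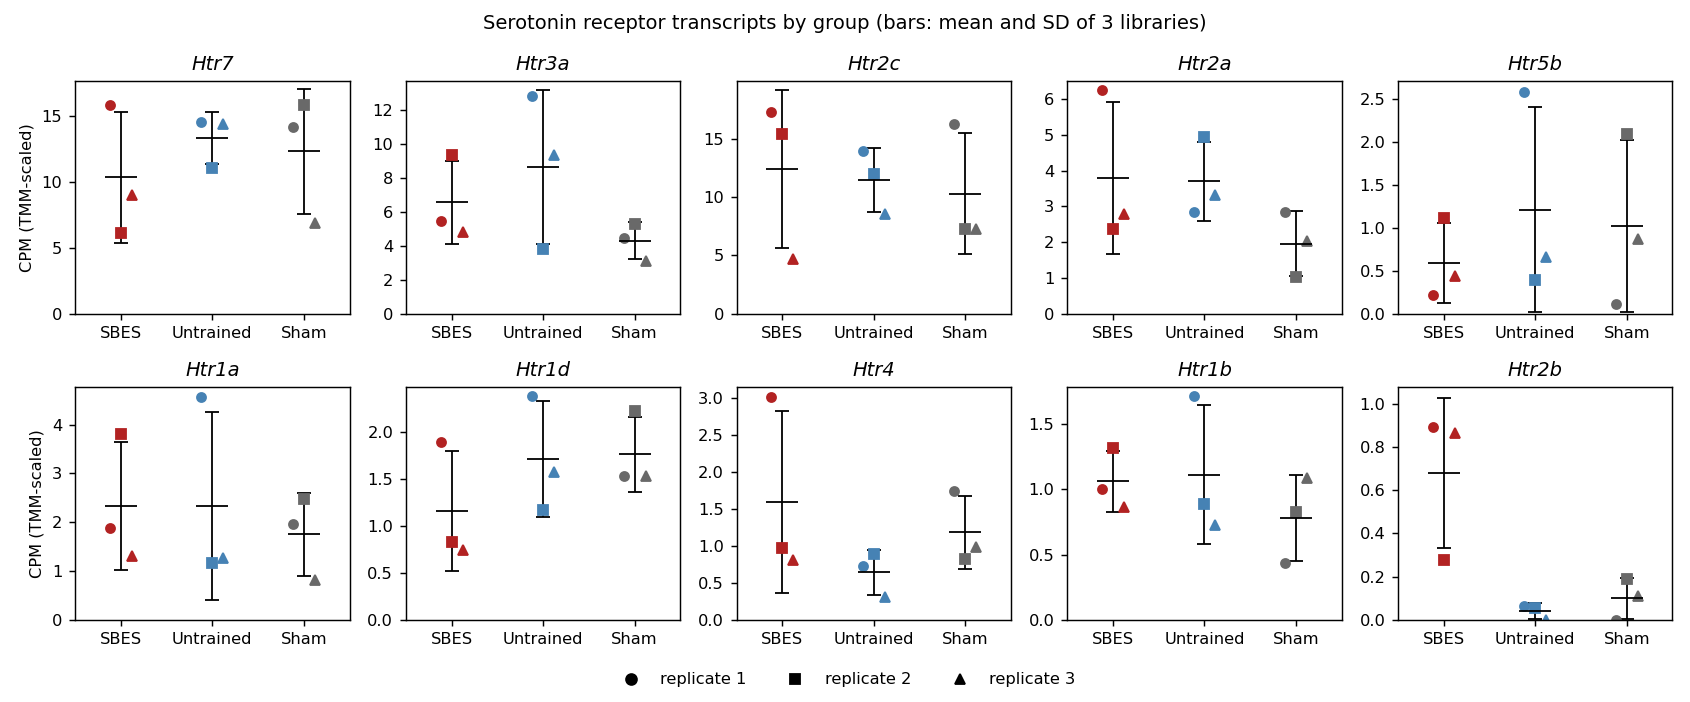
TMM-scaled CPM (y axis) of each receptor gene by group, with a symbol per replicate and bars for the mean and SD of 3 libraries. Htr2b is the gene with all SBES libraries above the others, Htr2a has all untrained libraries above sham, and the other groups overlap.

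Htr3a, the channel subunit, had the lowest unadjusted p of the receptors after injury. It had 5.46, 9.36 and 4.82 CPM in SBES libraries, 12.8, 3.79 and 9.35 CPM in untrained libraries and 4.47, 5.27 and 3.11 CPM in sham libraries. Untrained libraries 1 and 3 lay above all sham libraries, and untrained library 2 lay inside the sham range. The level was 2.02 times that of sham in the untrained group (log2 fold change 1.01, SE 0.43, unadjusted p = 0.0377), with an edgeR adjusted p = 1. The adjusted p ran from 0.347 to 1 over the alternatives. Without untrained replicate 1 the log2 fold change was 0.66. Between SBES and untrained libraries it was -0.39 (95% interval -1.32 to 0.53). Its partner subunit gene Htr3b had between 0 and 4 counts per library. In the cord Htr3a is known from interneurons and sensory terminals, and 10 interneuron markers summed to 677, 594 and 426 CPM in SBES libraries, 1730, 239 and 508 CPM in untrained libraries and 1093, 383 and 260 CPM in sham libraries. The untrained libraries fell in the same order for Htr3a and for the sum of these markers, and the SBES and sham libraries did not. Single markers differed in this. Sst, with 1050, 68.1 and 202 CPM in untrained libraries 1 to 3, led the sum and had that order. Gad2, with 41.4, 24.2 and 17.2 CPM, did not, and neither did several others. Sst and Gad2 are named here after their values were seen. The part of interneuron RNA in the Htr3a level was not tested.

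In CPM the libraries of the Gs-coupled receptors overlapped between all groups. Htr7 had 15.9, 6.17 and 9.03 CPM in SBES libraries, 14.6, 11.1 and 14.4 CPM in untrained libraries and 14.2, 15.9 and 6.92 CPM in sham libraries. Sham and SBES libraries each covered more than the whole untrained range. In FPKM, which carry no TMM adjustment, Htr7 lay lower in every SBES than in every untrained library. It had 3.56, 2 and 2.7 FPKM in SBES and 4.51, 3.78 and 4.66 FPKM in untrained libraries, and no share over all genes was counted in FPKM. Its log2 fold change was 0.12 (95% interval -0.70 to 0.94) in untrained against sham and -0.37 (-1.20 to 0.45) in SBES against untrained. Htr4 had 3.01, 0.971 and 0.804 CPM in SBES libraries, 0.727, 0.891 and 0.302 CPM in untrained libraries and 1.74, 0.825 and 0.981 CPM in sham libraries. SBES replicate 1 stood apart from the others of its group. In untrained against sham its log2 fold change was -0.84 (95% interval -2.20 to 0.52), with means of 0.640 ± 0.304 CPM in untrained and 1.18 ± 0.491 CPM in sham libraries (SD, n = 3 each). For Htr4 the log2 fold change in SBES against untrained was 1.25 (SE 0.62, edgeR adjusted p = 0.954), and 0.46 without SBES replicate 1.

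Among the Gi/o-coupled receptors, Htr1a was led by single libraries. It encodes the 5-HT1A receptor, which in the turtle cord is known to dampen motoneuron firing at strong serotonin release. Htr1a had 1.89, 3.81 and 1.30 CPM in SBES libraries, 4.56, 1.17 and 1.27 CPM in untrained libraries and 1.96, 2.48 and 0.818 CPM in sham libraries. In untrained against sham its log2 fold change was 0.42 (SE 0.62) and -0.47 without untrained replicate 1. In SBES against untrained it was 0.02 (SE 0.61), with -0.55 without SBES replicate 2 and 0.92 without untrained replicate 1. The presynaptic receptor genes Htr1b and Htr1d had 0.436 to 1.72 and 0.742 to 2.38 CPM over the libraries. Htr1d averaged 1.16 ± 0.641 CPM in SBES, 1.71 ± 0.617 in untrained and 1.76 ± 0.402 CPM in sham libraries (SD, n = 3 each). Its log2 fold change was -0.60 (95% interval -1.65 to 0.44) in SBES against untrained and -0.66 (-1.71 to 0.40) in SBES against sham. That of Htr1b was 0.45 (SE 0.51) in untrained against sham, 0.032 without untrained replicate 1, and -0.06 (SE 0.50) in SBES against untrained.

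Htr5b, a rodent receptor whose human counterpart encodes no functional protein, varied most among the tested members, with a 23.7-fold range over the libraries. That range rests on few counts, from 1 in sham 1 to 39 in untrained 1, with at least 10 in 5 of 9 libraries. It had 0.223, 1.11 and 0.433 CPM in SBES libraries, 2.58, 0.390 and 0.664 CPM in untrained libraries and 0.109, 2.09 and 0.872 CPM in sham libraries. Its log2 fold change was -0.96 (SE 0.90) in SBES against untrained and 0.16 (SE 0.85) in untrained against sham, which was -0.98 without untrained replicate 1 and 1.13 without sham replicate 2.

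Htr3a, Htr5b and Htr1a reached their highest level in the same library of each group, SBES 2, untrained 1 and sham 2. Untrained 1 was the highest untrained library for 8 of the 10 receptors, sham 2 the highest sham library for 6 and SBES 1 the highest SBES library for 6. SBES 2, untrained 1 and sham 2 also had the lowest summed motor neuron markers of their groups, at 724, 616 and 1440 CPM, against 1450 to 1980, 922 to 959 and 1680 to 1970 CPM in the others. The neurofilament gene Nefh dominated that sum, with 395, 386 and 726 CPM in the 3 libraries, and is named here after its values were seen. The low place of sham 2 rested on Nefh, which had 1270 CPM in sham 1. Every other marker of that list was higher in sham 2 than in sham 1. Chat was lowest of its group in untrained 1, at 20.2 CPM, but not in SBES 2 or sham 2, at 22.5 and 34.6 CPM. Slc18a3 was lowest in SBES 2 and untrained 1, at 91.4 and 34.6 CPM, but not in sham 2, at 118 CPM. The part of cell content in these receptor levels was not tested. The genes whose log2 CPM followed that of Htr7 most closely, among 10654 with a mean FPKM of at least 1, were Mmp17 (Pearson r 0.974, Spearman rho 0.933), Rnf11 (r 0.963, rho 0.85) and Fbxo33 (r 0.950, rho 0.933), as a description over 9 libraries. Htr7 was taken for this because it has the most counts of the receptors.

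Genes that make and clear serotonin gave 0 calls among 10 tested in each comparison. In SBES against sham 4 had an unadjusted p under 0.05, in SBES against untrained 1 and in untrained against sham 0, where 9.31%, 5.37% and 4.45% of all genes did. Slc18a2, the vesicular monoamine transporter, had 0.223, 0.555 and 0.124 CPM in SBES libraries, 0.463, 1.22 and 0.543 CPM in untrained libraries and 1.85, 1.40 and 1.36 CPM in sham libraries. All SBES and all untrained libraries lay below all sham libraries, on counts of 2 to 25 per library. Of all genes, 6.73% had all SBES libraries below sham and 5.13% had all untrained libraries below sham. Slc18a2 had a log2 fold change of -2.30 (SE 0.63, edgeR adjusted p = 0.184) in SBES against sham and -1.02 (SE 0.55) in untrained against sham. Ddc, the decarboxylase of the last step of serotonin synthesis, had 18.6, 71.6 and 23.0 CPM in SBES libraries, 13.4, 9.69 and 43.6 CPM in untrained libraries and 11.8, 12.8 and 12.3 CPM in sham libraries. Each SBES library exceeded each sham library, as for 7.1% of all genes, and SBES 2 and untrained 3 stood apart. The log2 fold change of SBES against sham was 1.62 (SE 0.58, edgeR adjusted p = 0.359), 0.76 without SBES replicate 2, and in the fit without a filter on low counts it passed (adjusted p = 2.09e-05). In injured rats, cells of the cord with this enzyme are known to make monoamines from supplied precursors.

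Maoa, which degrades serotonin, had 29.7, 34.5 and 29.6 CPM in SBES libraries, 49.8, 44.5 and 45.5 CPM in untrained libraries and 35.4, 53.7 and 47.5 CPM in sham libraries. All SBES libraries lay below all others, where 4.77% of all genes had SBES below untrained and 6.73% had SBES below sham. Like the genes named from the other pathway lists, Maoa was chosen for its small unadjusted p. Its log2 fold change was -0.58 (SE 0.22) in SBES against untrained and -0.54 (SE 0.22) in SBES against sham, with edgeR adjusted p = 0.914 and 0.445. Gch1, which makes the cofactor of tryptophan hydroxylase, was at 0.81 (SE 0.35, edgeR adjusted p = 0.5) in SBES against sham. Its value was 0.50 without SBES replicate 3, and without the 3 replicate 1 libraries it was 1.19 and passed (edgeR adjusted p = 0.0424). The hydroxylase gene Tph2 lay between 0 and 1.42 CPM, Tph1 was at 0 in every library, and the serotonin transporter gene Slc6a4 reached at most 0.111 CPM.

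**Figure D4:**
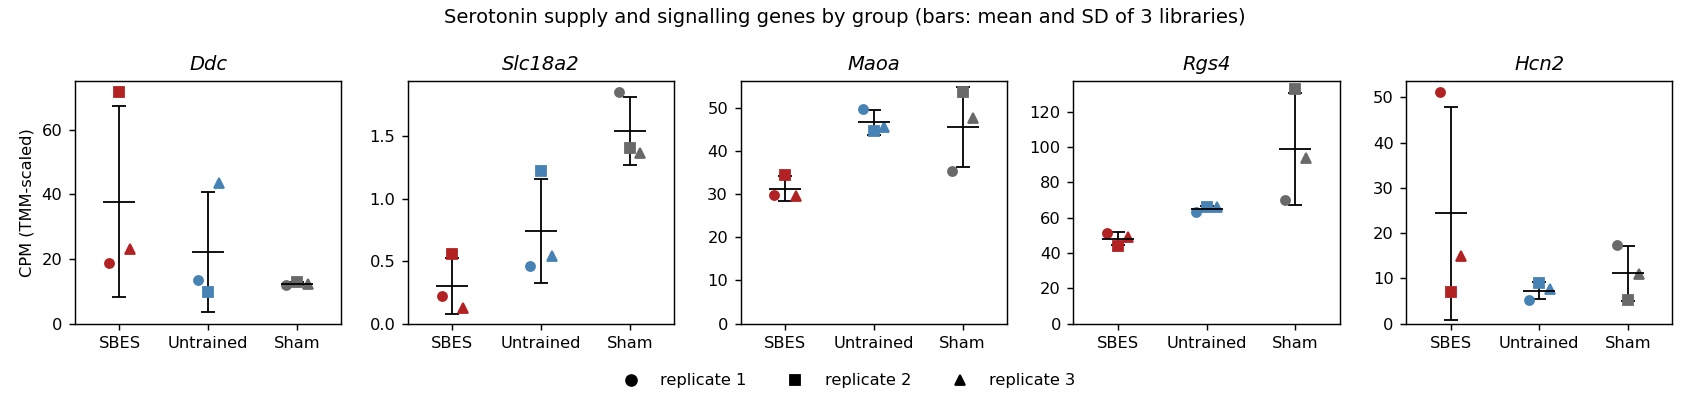
TMM-scaled CPM (y axis) by group of Ddc, Slc18a2 and Maoa, which make, store and degrade serotonin, and of Rgs4 and Hcn2, with bars for the mean and SD of 3 libraries. Slc18a2 and Rgs4 have all SBES and all untrained libraries below sham, Maoa has all SBES libraries below both other groups, and single libraries lead Ddc and Hcn2.

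Among 15 genes of the Gq arm, 0 were called, with 1, 0 and 1 at an unadjusted p under 0.05 in untrained against sham, SBES against untrained and SBES against sham. The gene was Rgs4, a regulator that switches off Gq and Gi/o signals. It had 51.5, 44.1 and 49.0 CPM in SBES libraries, 63.5, 65.9 and 65.9 CPM in untrained libraries and 69.9, 133.0 and 93.7 CPM in sham libraries. No 2 groups overlapped, with SBES lowest and sham highest. Of all genes, 5.13% had untrained below sham, 4.77% had SBES below untrained and 6.73% had SBES below sham. Rgs4 had a log2 fold change of -1.04 (SE 0.24, edgeR adjusted p = 0.113) in SBES against sham and -0.60 (SE 0.24, edgeR adjusted p = 1) in untrained against sham, which was -0.33 without sham replicate 2. DESeq2 called it in SBES against sham (adjusted p = 0.0136), as did edgeR without the filter (0.0285) and without the replicate 1 libraries (0.00663).

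Of 18 genes of the Gs arm, 12 of the Gi/o arm and 15 receptor partners, 0 were called in any comparison with edgeR. An unadjusted p under 0.05 was found for 0 of the Gi/o genes in each comparison, for 1 of the Gs genes in each of the SBES comparisons and for 1 partner in SBES against sham. In SBES against untrained, Adcy5, an adenylyl cyclase, was at 0.67 (SE 0.28, edgeR adjusted p = 0.914). In SBES against sham, Rapgef3, a cyclic AMP sensor, was at 0.67 (SE 0.27) and Grk2, a kinase that desensitises receptors, at 0.60 (SE 0.24), with edgeR adjusted p = 0.464 and 0.442. Of 15 channel and transporter genes that serotonin is known to act on in motoneurons, 0 were called. In SBES against untrained 2 had an unadjusted p under 0.05. In SBES against sham 14 were positive, with a median of 0.27, where 49.8% of all genes were positive. The summed level of this list was 835, 335 and 339 CPM in SBES libraries 1 to 3 and 602, 235 and 348 CPM in sham libraries. SBES replicate 1 thus led it, and the positive genes were not recounted without that library. Hcn2, a channel of the hyperpolarisation-activated current, had 51.1, 7.07 and 15.0 CPM in SBES libraries, 5.29, 9.02 and 7.66 CPM in untrained libraries and 17.3, 5.20 and 11 CPM in sham libraries. Its log2 fold change in SBES against untrained was 1.72 (SE 0.62, edgeR adjusted p = 0.896), and 0.59 without SBES replicate 1, while the fit without a filter called it (adjusted p = 0.000147). Kcnk3, a leak potassium channel that Gq signals close, was at 0.84 (SE 0.39) and at 0.18 without SBES replicate 1.

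The serotonin receptor genes outside the 10 were low and gave 0 calls and 0 unadjusted p under 0.05 among the 3 that passed the filter. Htr5a lay between 1.78 and 3.95 CPM, Htr1f between 0.495 and 1.89 CPM and Htr6 between 0.416 and 1.11 CPM. Of 10 adrenergic and dopamine receptor genes tested, 0 were called, and 1 gene had an unadjusted p under 0.05 in untrained against sham and in SBES against untrained. That gene was Adra1b, a Gq-coupled receptor for noradrenaline. It had 9.36, 8.67 and 11.3 CPM in SBES libraries, 4.49, 6.57 and 7.54 CPM in untrained libraries and 9.37, 9.14 and 11.7 CPM in sham libraries. All untrained libraries of Adra1b lay below all others, where 5.13% of all genes had untrained below sham and 5.66% had SBES above untrained. The log2 fold change was -0.70 (SE 0.27) in untrained against sham and 0.65 (SE 0.27) in SBES against untrained, with edgeR adjusted p = 1 and 0.914. The 2 comparisons share the untrained libraries.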

How the data were processed

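Smart-seq2 RNA-seq of 9 libraries was used as deposited. Per the labels' protocols, the authors aligned reads with Hisat2 2.0.1 and counted genes with HTSeq 0.6.1, and the submitters' processing notes name mm10. The authors deposited whole-number counts and, per the file headers, FPKM, which followed from counts, exonic lengths and totals within 0.006 for 100% of values. Exonic lengths are another column, per the file headers.

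Counts were tested with edgeR 4.0.16 in R 4.3.3 (filterByExpr, 15893 genes, TMM factors 0.727 to 1.16, 1 quasi-likelihood fit of all 9 libraries with a coefficient per group), called at a Benjamini-Hochberg adjusted p under 0.05 over all genes tested. The fit was also run on counts simulated from the means and dispersions of these data, with 200 genes changed by known folds. In untrained against sham, SBES against untrained and SBES against sham it recovered 8%, 4% and 5% of 2-fold changes. Of 4-fold changes it recovered 78%, 62% and 55%, and 12.2%, 2.94% and 4.76% of its calls were false. A change of 2-fold would thus mostly go uncalled. DESeq2 1.42.0, limma 3.58.1 on log2(FPKM + 1) and log2(FPKM + 0.1), other filters and left-out libraries were alternatives. The members and gene lists were chosen with earlier results of these data known. Genes named by rule are the 10 receptors, 6 marker genes (among them Tph2 and Slc6a4), the 3 genes most like Htr7 and, of each pathway list and comparison, up to 2 of smallest unadjusted p, shown where it was under 0.05. That limit, and naming Gch1, Maoa in SBES against sham, Tph1, Htr3b, Htr5a, Htr1f, Htr6, Psmd1, D430036J16Rik, Otx2, Nefh, Sst, Gad2, Pecam1 and Flt1, were chosen after values were seen. GENCODE M21 gave overlaps, and RefSeq promoter windows came from GRCm38.p6.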

Additional observations from a re-analysis of the deposited data

How the results depend on the processing

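The count of receptor genes called stayed at 0 in all 3 comparisons under every alternative run. Of 516 alternative values of receptor log2 fold changes, 467 kept their direction and 49 reversed, with 0 passing the threshold, and the cause was not tested. The counts over all genes moved more. DESeq2 called 14, 29 and 283 genes in untrained against sham, SBES against untrained and SBES against sham, where edgeR called 0, 0 and 55. Without a filter the counts were 134, 186 and 517, and without the 3 replicate 1 libraries 47, 13 and 581. limma gave 1 gene in untrained against sham at a pseudocount of 0.1, and in SBES against sham 30 at 0.1 and 21 at 1. Leaving out 1 library gave 0 to 0, 0 to 1 and 0 to 86 genes. In SBES against sham the lowest count came without sham replicate 3 and the highest without SBES replicate 1.

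With the replicate number as a block, 4 genes were called in untrained against sham and 132 in SBES against sham, 0 of them receptors. Libraries share only a number: deviations of same-numbered libraries correlated between -0.168 and 0.391, and 4 of 9 libraries correlated best with their own number. Under the block, SBES against untrained reversed for Htr2a (-0.13) and Htr2c (-0.016).

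Other reversals in SBES against untrained were Htr2a with DESeq2 (-0.0025) and, without a filter, Htr2a (-0.037) and Htr1a (-0.00028). limma gave -0.031 and -0.057 for Htr1a, -0.11 and -0.24 for Htr2a and -0.11 and -0.25 for Htr2c at pseudocounts of 1 and 0.1, and 0.035 and 0.098 for Htr1d in untrained against sham. Without the replicate 1 libraries, untrained against sham reversed for Htr1a (-0.39), Htr1b (-0.22) and Htr5b (-1.45), SBES against untrained for Htr1b (0.40), Htr2a (-0.71), Htr2c (-0.064), Htr3a (0.089) and Htr5b (0.52), and SBES against sham for Htr4 (-0.025).

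Leaving out single libraries turned the sign of these receptors. In untrained against sham the values ran from -0.47 to 0.79 for Htr1a, -0.33 to 0.16 for Htr1d, -0.023 to 0.69 for Htr2c, -0.98 to 1.13 for Htr5b and -0.17 to 0.35 for Htr7. In SBES against untrained they ran from -0.55 to 0.92 for Htr1a, -0.29 to 0.37 for Htr1b, -0.53 to 0.28 for Htr2a, -0.21 to 0.50 for Htr2c and -1.77 to 0.19 for Htr5b. In SBES against sham they ran from -0.14 to 0.81 for Htr1a, -0.0040 to 0.78 for Htr2c, -0.35 to 0.77 for Htr4, -1.61 to 0.16 for Htr5b and -0.66 to 0.016 for Htr7. Fits of Htr2b without a filter and with a library left out, and all alternatives for genes outside the 10, were added after seeing the data. Htr2b, at 0 to 14 counts per library, is the receptor that depth limits most.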
